A study of Mus musculus with 6 samples.

Results

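The BCL2 family sets whether a cell keeps or loses the outer membrane of its mitochondria, and the 10 family genes described here were chosen by symbol: Bcl2, Bcl2l1, Mcl1, Bak1, Bax, Bcl2l11, Bmf, Bid, Bbc3 and Pmaip1. All 10 were found among the 53801 genes of the deposited count table, and all 10 passed the filter on low counts that left 13631 genes to test. RNA was sequenced from 6 samples of mouse fetal liver cells (embryonic stage E12.5-13.5) of a strain in which the CAG promoter drives Cas9 and EGFP from the Rosa26 locus. All 6 samples are titled as Gata1s cells, named for the short form of the transcription factor GATA1, and carried a guide against Gata1 (sgGata1), a miR-125b transgene and an inducible construct, and all were kept in 1 μg/mL doxycycline for 48 h. That construct was Arid3a-FLAG in 3 samples and LUC in the other 3, which are the controls here, so no sample lacked the Gata1 guide, miR-125b or doxycycline. The labels do not give the share of cells with an edited Gata1, or say whether the replicates were separate cultures, pools or clones, so the p-values rest on a spread between samples that may be technical only.

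As background, the family has guardians, effectors and BH3-only proteins. The guardians, here BCL2, BCL-xL (Bcl2l1) and MCL1, hold the effectors BAX and BAK (Bak1) in check. The BH3-only proteins BIM (Bcl2l11), BMF, BID, PUMA (Bbc3) and NOXA (Pmaip1) either bind the guardians or engage the effectors, which then open the membrane and release cytochrome c. Megakaryocytes and platelets depend on BCL-xL, with MCL1, to restrain BAK and BAX, and the level of BCL-xL limits how long a platelet lives. Bak1 and Bmf have been reported as targets of miR-125b, a microRNA that is overexpressed in megakaryocytic leukaemia.

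Because every sample carried miR-125b, its sequence and its seed matches in the family are shown first. The seed, bases 2 to 8 counted from the 5′ end, is in capitals in the mature sequence from RefSeq (GRCm38.p6), which is the same from the loci on chromosomes 9 and 16.
miR-125b-5p: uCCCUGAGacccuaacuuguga
The transcript strand of the longest annotated 3′ UTR of each gene (GENCODE M21, GRCm38) was searched for CTCAGGGA, which pairs with the whole seed and ends in A opposite base 1, and for its 7-base parts CTCAGGG and TCAGGGA, counted only where the longer site was absent. The 8-base sites found in the family are the following, with the match in capitals and the coordinates of the match.
Bmf, chr2:118532085-118532092, minus strand: gcgcccaccgcatgggCTCAGGGAtt
Bmf, chr2:118532044-118532051, minus strand: tcaacttccggaagacCTCAGGGAgg
Bmf, chr2:118531428-118531435, minus strand: tctccccgctgcagtgCTCAGGGAgg
Bak1, chr17:27020316-27020323, minus strand: ccttggcggctggactCTCAGGGAtt
Mcl1, chr3:95662981-95662988, plus strand: tttgtcttacacgtctCTCAGGGAaa

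The 3′ UTR of Bmf, 3801 bases long, held 3 of these 8-base sites and 1 7-base site. The UTRs of Bak1 (1121 bases) and Mcl1 (2353 bases) held 1 8-base site each. Bcl2 had 2 7-base sites and Bbc3 had 1, while the letters were not present in the UTRs of Bcl2l1, Bax, Bcl2l11, Bid and Pmaip1. Of 11614 tested genes with an annotated 3′ UTR, 23% held an 8-base or 7-base site and 5.59% held an 8-base site. Among genes with a UTR within 10% of the same length the 8-base share was 12.6% for Bmf, 5.22% for Bak1 and 9.12% for Mcl1. The share with an 8-base or 7-base site was 54.3% at the length of Bcl2 and 18.8% at that of Bbc3. A match is a description of the letters, and binding was not measured.

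**Figure D1:**
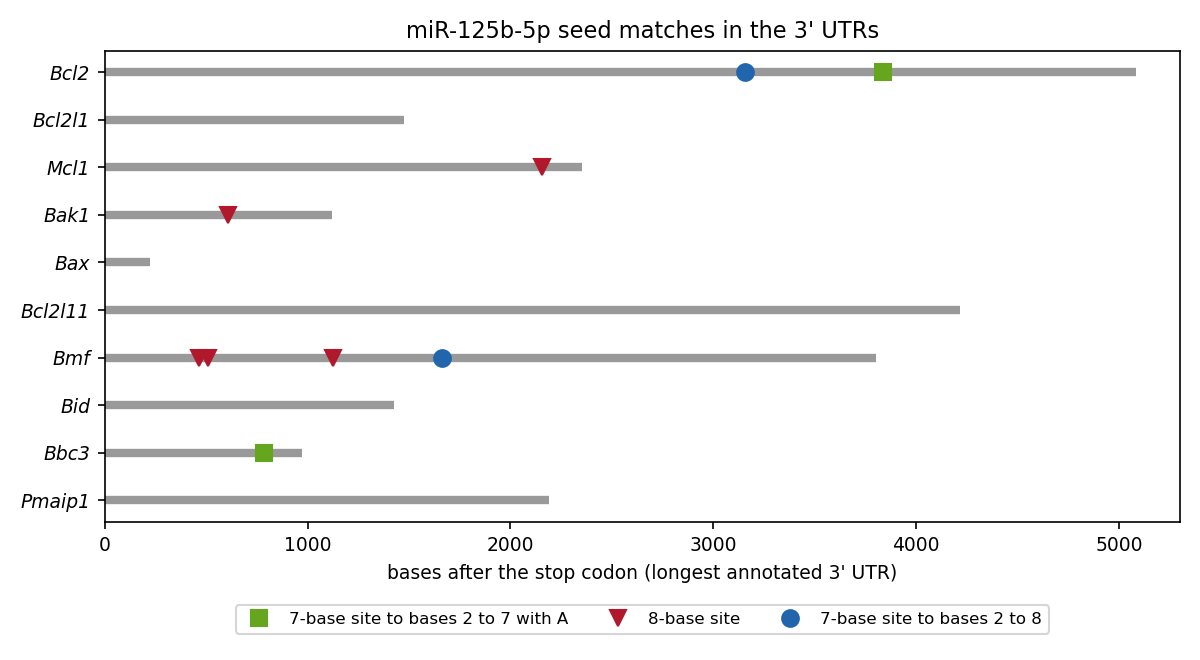
Seed matches to miR-125b-5p in the longest annotated 3′ UTR of each member, with bases after the stop codon on the horizontal axis, a grey bar for the length of each UTR and a symbol for each kind of site. Bmf has 4 sites, 3 of them 8-base sites, and 5 of the 10 genes have none. Of all tested genes with an annotated 3′ UTR, 23% have a site.

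Total counts per library ran from 15728150 to 18249053. The tagged Arid3a construct had 2758 to 3348 counts in the Arid3a-FLAG libraries and 0 in each LUC library. LUC library 2 stood apart from the other 5 on the second principal component, which held 24.0% of the variance, so members are also given without it where that changed the call, turned the sign or moved the value by over 1.5 times, and likewise for other single libraries. Pf4 stood at 3938 CPM (a gene's counts scaled to a library of 1000000 counts) in the controls, the highest of 12 megakaryocyte markers. Itga2b stood at 1778 CPM, whereas Tubb1, the tubulin of mature platelets, was the lowest at 1.32 CPM. Vwf, Gp1ba and Treml1 were also low, at 12.9, 17.9 and 2.635 CPM. The 8 mast cell and basophil markers ran from Hdc at 25.4 CPM to Gata2 at 1202 CPM in the controls. Of the 6 hepatocyte markers, Ttr, Serpina1a and Fgb had no counts in any library, and Alb averaged 0.0436 CPM in the controls. Afp, the serum protein of fetal hepatocytes and the only tested marker of that list, was present at 22.1 ± 3.56 CPM in the controls, against 18.1 ± 2.10 CPM after induction (SD, n = 3).

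None of the 10 family genes passed the test for a difference between Arid3a-FLAG and LUC (edgeR's quasi-likelihood test, Benjamini-Hochberg adjusted p under 0.05 over all genes), against 7.29% of all tested genes (3.43% called higher and 3.87% called lower). At an unadjusted p under 0.05, Bcl2l11 was lower and no other member was past it. Over all 13631 tested genes, 1592 were higher and 1891 lower at that unadjusted p. These numbers are the background for every count at an unadjusted p given here. DESeq2 and limma-voom also called none of the 10 members. The fitted differences were above 0 for 6 members and below 0 for 4, with a median of 0.05 on the log2 scale beside -0.03 for all tested genes. Every member's 95% interval lay inside a 2-fold change in either direction: the lowest bound over the members was 0.537-fold and the highest 1.68-fold. In bulk RNA, fewer cells of a type and less RNA per cell cannot be told apart, and this holds for every value here. Groups that did not overlap were seen for 2 members, Bbc3 and Pmaip1, or 20% of them, against 33.1% of all tested genes.

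**Figure D2:**
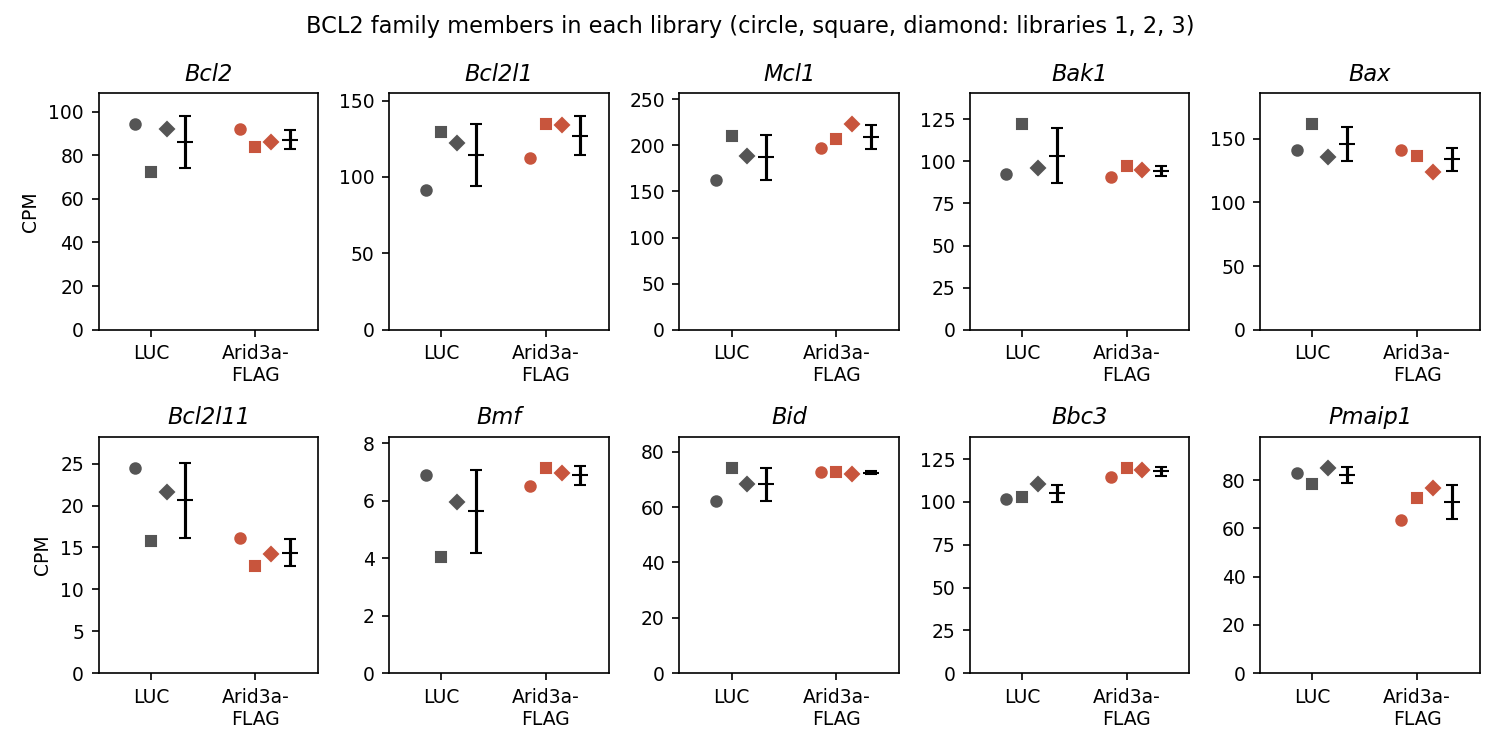
CPM of each member in every library, with LUC in grey and Arid3a-FLAG in orange, symbols for libraries 1, 2 and 3, and black bars for the mean and SD of 3 libraries. Each vertical axis starts at 0; the groups overlap for all members except Bbc3, which was higher with Arid3a-FLAG, and Pmaip1, which was lower.

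Among the guardians, Mcl1 (ENSMUSG00000038612, chromosome 3, 95658788 to 95663176, mm10) encodes a short-lived protein that binds BIM, NOXA and BAK. Its levels were 162.3, 210.4 and 188.2 CPM in control (LUC) libraries 1 to 3, against 196.9, 206.6 and 222.9 CPM in Arid3a-FLAG libraries 1 to 3. LUC library 2 lay within the range of the Arid3a-FLAG libraries and the other LUC libraries lay below it. The fitted difference for Mcl1 was 0.16 on the log2 scale (95% interval -0.08 to 0.40; SE 0.11; adjusted p = 0.386). Without LUC library 2 it was 0.27 and passed (adjusted p = 0.0409), in a fit that called 16.4% of all genes, whereas without LUC library 1 it was 0.09 (adjusted p = 0.625).

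Bcl2l1 (ENSMUSG00000007659, chromosome 2, 152780668 to 152831728), the gene of BCL-xL, read 91.2, 129.7 and 122.1 CPM in the controls, against 112.5, 134.5 and 134.3 CPM after Arid3a-FLAG induction. LUC library 1 was the lowest of the 6, and the other LUC libraries lay between the lowest and the highest Arid3a-FLAG library. Bcl2l1 differed by 0.15 on the log2 scale (95% interval -0.14 to 0.45; SE 0.13; adjusted p = 0.503), and it was 0.27 without LUC library 2 (adjusted p = 0.135). The value was 0.04 without LUC library 1 (adjusted p = 0.870), and 0.24 (0.332) and 0.24 (0.442) without LUC library 3 and Arid3a-FLAG library 1 in turn. Bcl2 (ENSMUSG00000057329, chromosome 1, 106538178 to 106714274), the guardian first found in follicular lymphoma, read 94.2, 72.2 and 91.9 CPM in the controls, against 91.9, 83.7 and 85.9 CPM after Arid3a-FLAG induction. LUC library 2 was the lowest and the other LUC libraries were at least as high as the highest Arid3a-FLAG library. Its log2 fold change of 0.02 (95% interval -0.23 to 0.26; SE 0.11; adjusted p = 0.940) became -0.08 without LUC library 2. Leaving out Arid3a-FLAG library 1 gave -0.02, and leaving out LUC library 1 gave 0.11, the highest of the 6 fits that left out 1 library.

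Both effectors had slightly lower means with Arid3a-FLAG, within the spread of the libraries. Bak1 (ENSMUSG00000057789, chromosome 17, 27019810 to 27029009), with its single 8-base seed match, read 92.3, 122.0 and 95.8 CPM in the controls, against 91.0, 97.0 and 94.9 CPM after Arid3a-FLAG induction. Only LUC library 2 lay outside the narrow range of the other 5. For Bak1 this gave -0.13 on the log2 scale (95% interval -0.38 to 0.12; SE 0.11; adjusted p = 0.491) with all 6 libraries and 0.02 without LUC library 2. Bax (ENSMUSG00000003873, chromosome 7, 45461697 to 45466898), which moves from the cytosol to mitochondria when activated and is a p53 target, read 141.3, 161.3 and 135.7 CPM in the controls, against 141.3, 136.4 and 123.9 CPM after Arid3a-FLAG induction. LUC library 2 was again the highest, and Arid3a-FLAG library 3 the lowest. Its difference on the log2 scale was -0.13 (95% interval -0.34 to 0.09; SE 0.10; adjusted p = 0.448), and it was -0.04 without LUC library 2 (adjusted p = 0.780) and -0.07 without Arid3a-FLAG library 3 (0.782).

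The BH3-only genes held the widest differences of the family. Bcl2l11 (ENSMUSG00000027381, chromosome 2, 128126038 to 128162547) encodes BIM, a BH3-only protein that binds all the guardians and is held down by cytokine signalling in blood cells. It read 24.5, 15.8 and 21.6 CPM in the controls, against 16.1, 12.8 and 14.2 CPM after Arid3a-FLAG induction, from 221 to 424 counts a library. LUC library 2 was below Arid3a-FLAG library 1, and the other LUC libraries were above all Arid3a-FLAG libraries. The difference on the log2 scale was -0.52 (95% interval -0.90 to -0.15; SE 0.17), with an unadjusted p of 0.0105 and an adjusted p of 0.0867. Without LUC library 2 it was -0.67 (SE 0.12, adjusted p = 0.00526), and with any of the other 5 libraries left out it did not pass (adjusted p up to 0.284). With no filter on low counts it also passed, at -0.51 (adjusted p = 0.0131).

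Bmf (ENSMUSG00000040093, chromosome 2, 118528757 to 118549687), a BH3-only protein tethered to the myosin motor, was the least abundant member, with 62 to 123 counts a library. Its levels were 6.88, 4.05 and 5.94 CPM in the controls, against 6.52, 7.14 and 6.97 CPM after induction. LUC library 2 was the lowest, and LUC library 1 lay within the Arid3a-FLAG range. The fitted log2 difference was 0.28 (95% interval -0.17 to 0.74; SE 0.21; adjusted p = 0.417), the widest interval of the 10, and 0.12 without LUC library 2 (adjusted p = 0.685), but 0.47 without LUC library 1 (0.244). Bak1 and Bmf, both reported as miR-125b targets, thus gave fitted differences of opposite sign, neither of them past the test, and the sign of Bak1 turned with LUC library 2 left out.

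Bbc3 (ENSMUSG00000002083, chromosome 7, 16308393 to 16318205) encodes PUMA, a BH3-only protein induced by p53. It read 101.8, 102.7 and 110.7 CPM in the controls, against 114.6, 119.9 and 118.8 CPM after Arid3a-FLAG induction, so that every Arid3a-FLAG library was above every LUC library. The difference was small, at 0.16 on the log2 scale (95% interval -0.02 to 0.35; SE 0.08; adjusted p = 0.239). Pmaip1 (ENSMUSG00000024521), which encodes NOXA, a partner of MCL1 that is also a p53 target, read 82.9, 78.6 and 85.2 CPM in the controls, against 63.3, 72.8 and 76.9 CPM after Arid3a-FLAG induction. Every Arid3a-FLAG library was below every LUC library. On the log2 scale NOXA differed by -0.21 (95% interval -0.43 to 0.00; SE 0.10; adjusted p = 0.201). Both genes kept their sign and stayed outside the threshold in all 14 alternative fits; Pmaip1 was at -0.13 without Arid3a-FLAG library 1 (adjusted p = 0.539).

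Bid (ENSMUSG00000004446, chromosome 6, 120891930 to 120916853), which caspase-8 cleaves to link death receptors to mitochondria, read 62.1, 74.2 and 68.4 CPM in the controls, against 72.8, 72.7 and 71.9 CPM after Arid3a-FLAG induction. The 3 Arid3a-FLAG values were nearly equal and lay inside the LUC range. On the log2 scale Bid differed by 0.09 (95% interval -0.12 to 0.29; SE 0.09; adjusted p = 0.589), and it was 0.16 without LUC library 2 (adjusted p = 0.142) and 0.05 without LUC library 1 (0.799). Bid shares 17.7% of its exon bases with Bcl2l13 on the opposite strand, and Bak1 shares 18.2% with Ggnbp1, likewise opposite, so their counts are uncertain without a stated strand. Ggnbp1 had 337 counts over all libraries against 9883 for Bak1, while Bcl2l13 had 7565 against 7047 for Bid.

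**Figure D3:**
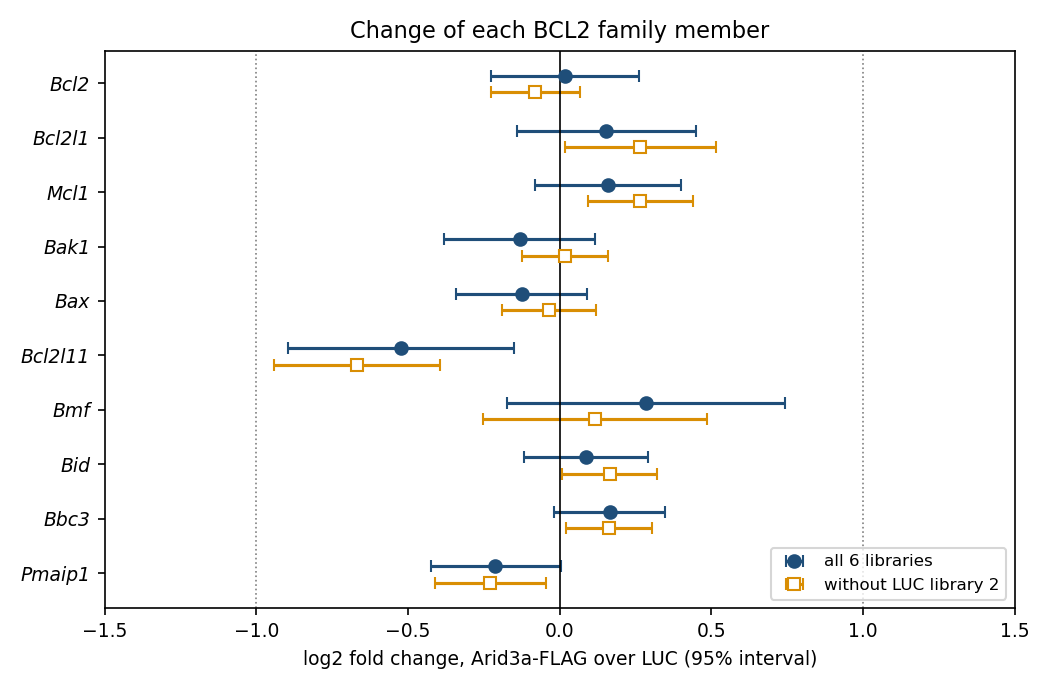
Log2 fold change of each member, Arid3a-FLAG over LUC, with its 95% interval, for all 6 libraries (filled circles) and without LUC library 2 (open squares); dotted lines mark 2-fold. All intervals lie between the dotted lines, and that of Bcl2l11 lies below 0 in both fits, from -0.90 to -0.15 with all 6 libraries.

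Levels of different genes were compared as CPM per kilobase of annotated exon, averaged over the 6 libraries. On this scale Bax was the most abundant transcript of the family at 88.8 CPM per kb, above 95.6% of tested genes. Mcl1 followed at 57.9, Bbc3 at 52.5, Bak1 at 41.0, Pmaip1 at 28.0, Bcl2l1 at 26.3 and Bid at 19.8 CPM per kb. Bcl2 was at 9.46, Bcl2l11 at 2.18 and Bmf at 1.19 CPM per kb, the last above 19.1% of tested genes. Among the guardians, Mcl1 was thus the most abundant transcript and Bcl2 the least. The ranges over libraries overlapped for the neighbours Mcl1 and Bbc3, Bbc3 and Bak1, Pmaip1 and Bcl2l1, and Bcl2l1 and Bid, and were separate for the other neighbours. Pmaip1 lay above Bcl2l1 in all 3 LUC libraries and below it in all 3 Arid3a-FLAG libraries, although neither gene passed the test. The 2 genes were close in LUC library 2 (28.77 against 28.29 CPM per kb) and Arid3a-FLAG library 3 (28.15 against 29.29). Their order also depends on the exon lengths used.

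The summed level of the 10 members was nearly the same in both groups, at 327.1 ± 23.0 CPM per kb in the controls, against 327.4 ± 6.14 after induction (SD, n = 3). The effectors Bax and Bak1 took 41.9%, 43.5% and 38.9% of this sum in the controls, against 39.8%, 38.2% and 35.8% after induction, ranges that overlap. The 3 guardians took 25.4%, 27.8% and 28.3% with LUC and 28.8%, 29.8% and 31.5% with Arid3a-FLAG. These shares did not overlap, with LUC library 3 and Arid3a-FLAG library 1 almost touching, and they were not tested. The 5 BH3-only genes took 31.4% ± 2.39 with LUC and 32.0% ± 0.572 with Arid3a-FLAG (SD, n = 3), with Bbc3 the largest part at 15.2% and 16.9% of the family sum. The shares rest on the union of annotated exons as the length of each gene, which is not the length of the isoform expressed.

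Ratios between members were read from the same levels. Mcl1 stood at 2.21 ± 0.163 times Bcl2l1 with LUC and 2.21 ± 0.144 times with Arid3a-FLAG, and Bax at 2.17 ± 0.160 and 2.17 ± 0.190 times Bak1 (SD, n = 3). Both of these ratios, each within a pair of like function, had equal means in the 2 groups. For the ratios to the third guardian, Bcl2, the means differed by less than the SD of either group. Bcl2l1 over Bcl2 was 2.725 ± 0.83 with LUC and 2.925 ± 0.418 with Arid3a-FLAG. Mcl1 over Bcl2 was 5.97 ± 1.65 and 6.43 ± 0.625 (SD, n = 3), so the LUC spread was wide in both. Bcl2l11 over Bmf was 2.33, 2.54 and 2.38 with LUC and 1.61, 1.18 and 1.34 with Arid3a-FLAG. LUC library 2, low for both genes, was as high as the other LUC libraries in this ratio. Over all 45 pairs of members, a count made after the values were seen, the groups did not overlap in 12 ratios. The share over all pairs of tested genes was not computed, so this count marks nothing particular to the family. For single genes, 33.1% of those tested did not overlap, which is no background for ratios that reuse the same members. None of the ratios was tested.

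**Figure D4:**
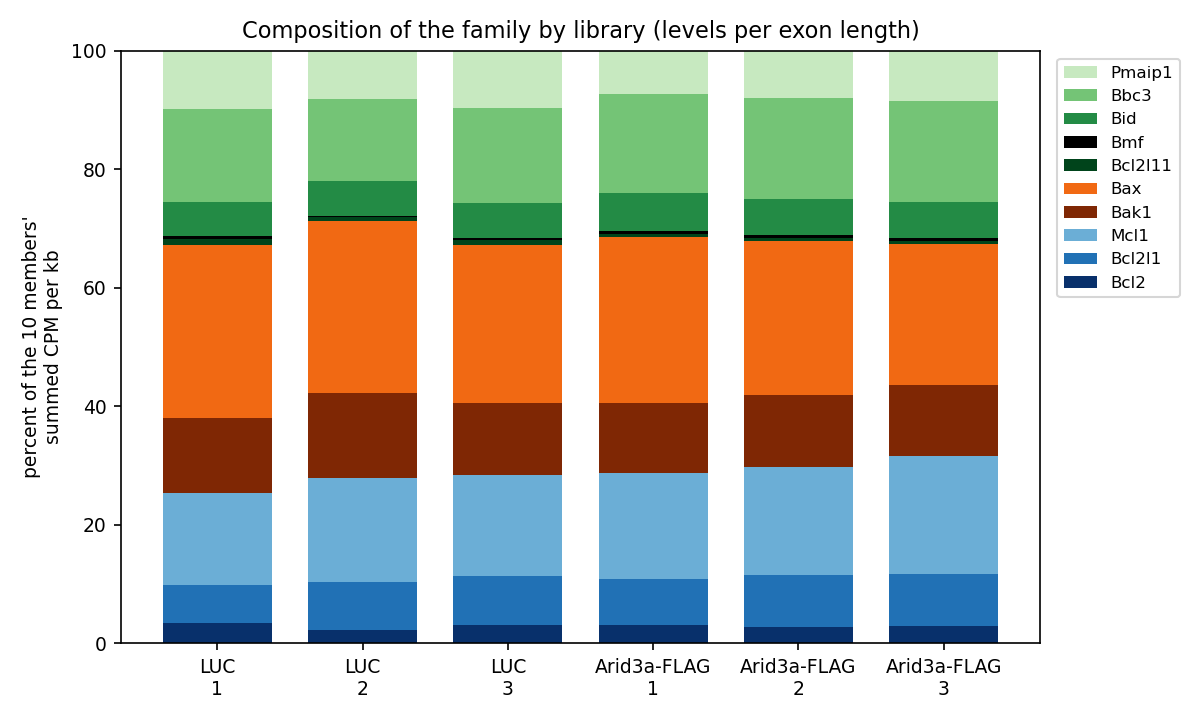
Share of each member in the summed CPM per kb of the 10 genes, 1 stacked bar per library, with guardians in blue, effectors in orange and brown and BH3-only genes in green and black. Bax is the widest band in each library, and the guardians together run from 25.4% in LUC library 1 to 31.5% in Arid3a-FLAG library 3.

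Of 18 other BCL2 relatives listed, 12 were tested and none passed in edgeR, DESeq2 or limma-voom (at an unadjusted p under 0.05 there were 0 higher and 3 lower; median log2 difference 0.03). With no filter on low counts edgeR called 1 lower, Bcl2l14 (-0.79, adjusted p = 0.0456), at 3.81 ± 0.651 CPM in the controls, against 2.17 ± 0.626 CPM after induction (SD, n = 3). The 3 most abundant per exon length were Bnip3 and Bnip3l, receptors for the removal of mitochondria by autophagy, with log2 fold changes of -0.01 and 0.04, and Bnip2, at 0.09. The guardian paralogues Bcl2a1a, Bcl2a1b, Bcl2a1d and Bcl2l10 and the BH3-only gene Hrk did not pass the filter, each with a mean of at most 0.439 CPM in either group. Chosen after their values were seen, Bnip1, a membrane fusion protein of the endoplasmic reticulum, averaged 39.9 ± 2.54 CPM in the controls, against 31.5 ± 2.18 after induction (SD, n = 3; adjusted p = 0.0706). Bok, a further effector, was low, at 0.762 ± 0.381 and 1.59 ± 0.887 CPM (adjusted p = 0.243).

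Downstream of the family, cytochrome c with APAF1 forms the apoptosome, which activates caspase-9 and then caspase-3 and caspase-7. Of 17 genes of the apoptosome, the caspases and the mitochondrial channel, all tested, none passed in edgeR, DESeq2 or limma-voom (at an unadjusted p under 0.05 there were 0 higher and 2 lower; median -0.08). The most abundant per exon length were the channel genes Vdac1 (log2 fold change -0.17) and Vdac2 (-0.08), and Cycs (-0.08), which encodes cytochrome c. All 5 genes of the inhibitor of apoptosis list were tested and none passed in the same 3 tools (at an unadjusted p under 0.05 there was 1 on each side). The 20 p53 pathway genes, which include Bax, Bbc3 and Pmaip1, gave no call in the 3 tools and none at an unadjusted p under 0.05. Their median log2 fold change was -0.04. Trp53 itself averaged 303.7 ± 24.2 CPM in the controls, against 278.7 ± 6.16 CPM after induction (SD, n = 3).

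Among 10 tested genes of the death receptor list, 1 fell, 0 rose and 9 did not pass, a share near the 7.29% called over all tested genes. The gene that fell was Tnfsf10, which encodes TRAIL, a ligand that starts the caspase-8 route to BID. TRAIL transcripts averaged 7.45 ± 1.38 CPM in the controls, against 3.76 ± 1.26 CPM after induction (SD, n = 3), or -0.99 on the log2 scale (adjusted p = 0.0386; SE 0.25). The gene no longer passed when control library 1 (adjusted p = 0.0893) or 3 (0.102) was left out, or when Arid3a-FLAG library 1 (0.16) or 2 (0.165) was. Its receptor gene Tnfrsf10b, chosen after its values were seen, had a log2 fold change of -0.20 (adjusted p = 0.466). Without LUC library 2 the adapter Fadd was also called, at 0.32 (adjusted p = 0.0344).

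Genes that act on the family, a list that also holds the member Mcl1, gave 1 rise, 0 falls and 19 that did not pass. The share called out of 20 tested was also near that over all genes, and the median log2 fold change was 0.07. The gene that rose was Usp9x, which encodes a deubiquitinase known to stabilise MCL1 protein. Usp9x averaged 99.4 ± 12.45 CPM in the controls, against 146.5 ± 10.2 CPM after induction (SD, n = 3), or 0.56 on the log2 scale (adjusted p = 0.0137; SE 0.11). It no longer passed when control library 1 (adjusted p = 0.0504) or Arid3a-FLAG library 1 (0.0875) was left out. Without LUC library 2, in the fit that called 16.4% of all genes, 7 of the 20 were called, 5 higher and 2 lower. Named after their values were seen, the 5 were Usp9x, Mcl1, Dynll2, Pim1 and Gsk3b, and the 2 were Stat5a (-0.37) and Stat5b (-0.44). Stat5a and Stat5b transmit cytokine signals that raise Bcl2l1 in erythroid cells, and Dynll2 encodes the light chain that holds BMF to the cytoskeleton.

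Of 28 reported miR-125b targets, which include the members Bak1, Bmf, Bbc3, Mcl1 and Bcl2, 24 were tested and none passed in edgeR. The median log2 fold change was 0.02 (an unadjusted p under 0.05 was reached by 3 above 0 and 2 below). DESeq2 called 1 of them lower, the kinase gene Map3k10 (-0.33, adjusted p = 0.0495), and limma-voom called none. Without LUC library 2, when 16.4% of all genes passed, there were 4 calls, with Mcl1, Dicer1 and Ppp1ca higher and Map3k10 lower. The most abundant per exon length were Trp53, Mcl1 and Bbc3, given above. No sample lacked the miR-125b transgene, so these data hold no measure of its effect on Bak1, Bmf or any other gene.

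**Figure D5:**
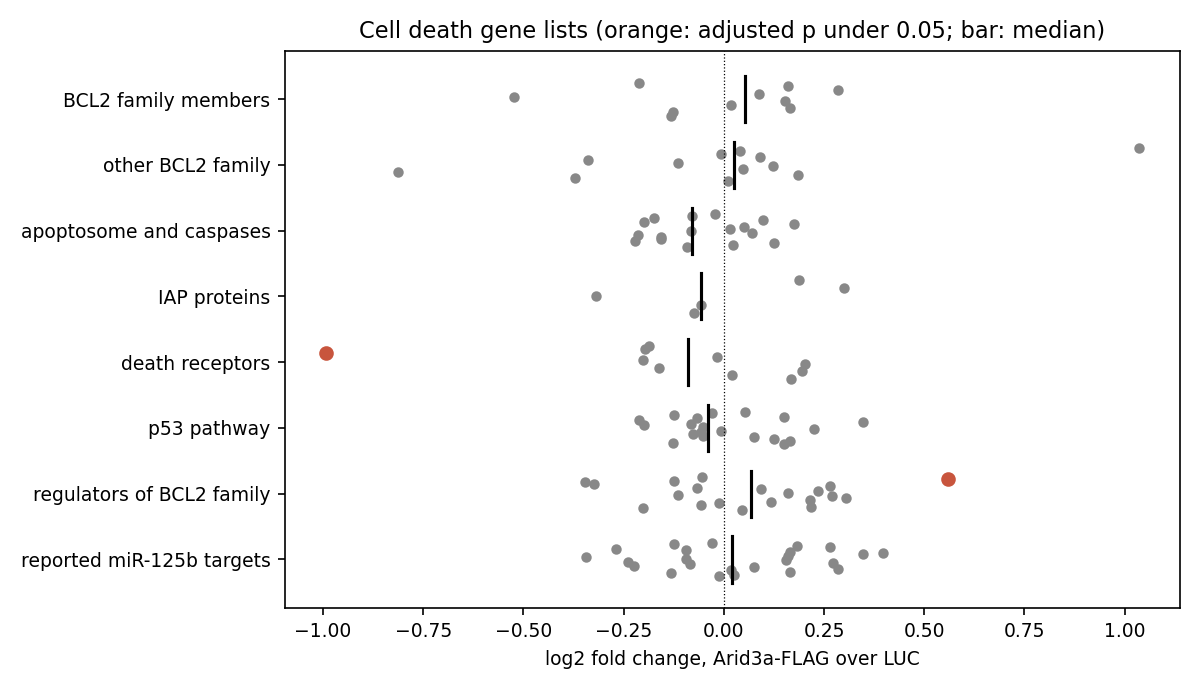
Log2 fold change, Arid3a-FLAG over LUC, of every tested gene in the 8 cell death lists, with a black bar at each list's median and orange points for genes with an adjusted p under 0.05. Tnfsf10 (-0.99) and Usp9x (0.56) are the called genes; the medians run from -0.09 for the death receptor list to 0.07 for the regulators.

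Summed cell type markers differed between the groups for some lists only. The calls in each list stand beside 7.29% called over all tested genes. The sums did not overlap for the mast cell and basophil, lymphoid, erythroid and macrophage lists. They overlapped for the neutrophil, megakaryocyte, and endothelial and stromal lists. The summed level of 8 mast cell and basophil markers, 3 of which fell, ran from 3015 to 3567 CPM with LUC and from 2147 to 2914 CPM with Arid3a-FLAG. Of 6 lymphoid markers, 3 were tested and 2 fell, and the sum ran from 156.3 to 171.3 and from 121.6 to 136.4 CPM. Of 8 neutrophil markers, 3 were tested and 2 fell, with sums of 20.5 to 23.1 and 10.4 to 23.1 CPM. Of 10 erythroid markers, 8 were tested, 1 rose and 1 fell, and the sum was higher with Arid3a-FLAG, at 441.4 to 565.7 against 306.9 to 359.5 CPM, with Slc4a1 at 0 in every library. Of 7 macrophage markers, 5 were tested and 1 rose, with sums of 17.3 to 20.9 CPM with LUC and 25.8 to 33.3 CPM with Arid3a-FLAG. Of 12 megakaryocyte markers, 3 rose and 1 fell, and the sum ran from 6833 to 8592 and from 7029 to 7551 CPM. Of 6 endothelial and stromal markers, 4 were tested, 1 rose and 1 fell, with sums of 117.9 to 145.7 and 93.2 to 121.7 CPM and Cdh5 at 0 in every library. The part of these markers in the values of Bcl2l11, Mcl1 and the other members was not tested.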

How the data were processed

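Read counts per gene, as deposited by the authors with no normalization, were used for 3 LUC and 3 Arid3a-FLAG libraries. Per the submitters' processing notes, fastp, featureCounts and HISAT2 (2.0.5) were used with mm10. The sources used here do not give strand, annotation release or the handling of reads with several positions. The construct entry entered neither library sizes nor tests. Symbols, exons and 3′ UTRs came from GENCODE M21 (GRCm38). The symbol Ddit3, which has 2 identifiers there, was left out.

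The test was edgeR 4.0.16 under R 4.3.3 (filterByExpr, TMM factors, glmQLFit and glmQLFTest, two-sided, group as the only term), adjusted by Benjamini-Hochberg over 13631 genes. CPM used library sizes scaled by TMM factors. Standard errors were derived from the F statistic. The test was checked on simulated data with the same relative spread for every gene and both groups. That check does not cover the wider spread of the LUC libraries. Alternatives used DESeq2 1.42.0, limma-voom (limma 3.58.1), other scaling, filters and thresholds, a replicate block, and each library left out. All members were named. From other lists at most 3 called genes per direction of the main test were named and, for 3 lists, the 3 most abundant. Genes called only in alternative fits were named after their values were seen. Members and lists were chosen with earlier results of these data known.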

Additional observations from a re-analysis of the deposited data

How the results depend on the processing

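The 994 calls over 13631 tested genes became 1945 over 23914 with no filter on low counts. There were 262 at an adjusted p under 0.01, and 233 to 2286 with 1 library left out. The count of called members, 0 in the main comparison, was 1 of 10 with no filter (Bcl2l11) and 0 to 2 with 1 library left out. The 2 are Mcl1 and Bcl2l11 without LUC library 2, in the fit that called 16.4% of all genes. It stayed 0 with RLE or upper quartile factors, genes kept from 5 CPM upward in 3 or more libraries, DESeq2, limma-voom, an adjusted p under 0.01, and library sizes without the 20 most abundant genes. The sign of Bcl2 turned with upper quartile factors (-0.002), and with 1 library left out its log2 fold change ran from -0.081 to 0.106, below 0 where LUC library 2 or Arid3a-FLAG library 1 (-0.021) was missing. That of Bak1 ran from -0.182 to 0.017, above 0 where LUC library 2 was missing; the cause was not tested. The other 8 members kept their sign in all 14 alternative fits. Libraries with the same replicate number had correlations of -0.10, -0.12 and 0.12 across genes, and 2 of 6 libraries correlated best with their own number. With 3 libraries a group this cannot decide whether the samples were paired, and the labels do not state it. With the replicate block there were 940 calls, among them 1 member, Bcl2l11 (-0.51, adjusted p = 0.0495). Depth limits Bmf most, with 630 counts over all libraries.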

Other observations

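The LUC libraries varied more than the Arid3a-FLAG libraries for 9 of the 10 members, all except Pmaip1, as they did for 72.5% of all tested genes. LUC library 2 was the highest library of the 6 for Bak1, Bax and Bid and the lowest for Bcl2 and Bmf, an extreme position for 5 of 10 members against 57.0% of tested genes.

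Across all tested genes, the 649 with an 8-base match to the miR-125b-5p seed in the 3′ UTR had a median log2 fold change of 0.01, with 20 higher and 21 lower (6.32% called). The 2672 genes with an 8-base or 7-base match had a median of 0.04, with 121 higher and 75 lower (7.34% called). The 8942 genes with a 3′ UTR that held no 8-base or 7-base match had a median of -0.04, with 333 higher and 402 lower (8.22% called). Length of the UTR and expression level were not matched between these sets.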
